A study of Homo sapiens with 8 samples.

Results

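The genes described here are 41 genes of mitosis, the spindle and the kinetochore, listed by symbol with earlier results of these data known, out of 58206 genes counted in Alexander1 cells. Alexander1 is an established epithelial line from a human hepatocellular carcinoma. RNA of 4 libraries of the parental line (labelled wt, Axin1 -) was compared with RNA of 4 libraries of a stable derivative (labelled Axin1 +). The parental line carries an Axin1 that lacks its GSK3-binding region, so that its Wnt pathway is constitutively active, and the derivative received full-length Axin1 from a retroviral plasmid. Both groups share this parental background, and both were grown in DMEM with serum. The labels print the same text on viral transfer and clonal selection with hygromycin B for the samples of both groups and do not say whether the derivative is 1 clone. They also do not say whether replicates are separate cultures, so p-values measure only the spread between these libraries. All 41 genes were found, and all 41 were among the 14289 genes that passed the filter on low counts.

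Mitosis is driven by the kinase CDK1 with its cyclins. Chromosomes are held to spindle microtubules at their centromeres by kinetochores, whose microtubule-binding core is the Ndc80 complex, and the spindle checkpoint delays anaphase until every kinetochore is attached. The anaphase-promoting complex then marks cyclin B and securin for destruction, separase cuts cohesin, and motor proteins and the contractile ring divide the cell. In many cycling cells, most of these genes are transcribed together late in the cell cycle, under the MuvB complex with B-MYB and FOXM1, and their summed mRNA is widely used as a readout of proliferation. In liver their mRNA is low in resting hepatocytes and rises in regeneration and in hepatocellular carcinoma.

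Libraries held 11232951 to 15263761 counts in the parental and 12372436 to 26400782 in the restored group, and no mitosis gene had fewer than 50 counts in any library. Levels are given as CPM, a gene's counts scaled to a common library total, and 4 values in a row are always replicates 1 to 4 in that order. Gene positions are those of GENCODE 29 on GRCh38. All 14 liver markers had a mean of at least 1 CPM, with summed levels of 27117 to 31235 CPM in the parental and 22862 to 28551 CPM in the restored libraries. Single liver markers moved both ways. At an edgeR adjusted p under 0.05, TTR, FGA and FGB were higher in the restored libraries and APOA2, SERPINA1 and TF lower. The other liver markers did not pass. Of markers of other cell types, 1 of 7 fibroblast genes, 1 of 6 leukocyte genes and 1 of 5 endothelial genes reached a mean of 1 CPM over the 8 libraries (COL1A1, LYZ and PECAM1), and POSTN, CD3E, CSF1R and TEK had no counts. The summed levels were 2.71 to 3.22 CPM in the parental and 1.23 to 4.59 CPM in the restored libraries for the fibroblast list, 421 to 949 CPM and 672 to 919.6 CPM for the leukocyte list, and 4.58 to 6.77 CPM and 34.1 to 58.5 CPM for the endothelial list, nearly all of it PECAM1. PECAM1 was higher in the restored libraries (log2 fold change 3.22, edgeR adjusted p = 8.45e-06). PDGFRB, of the fibroblast list, was lower in the restored libraries, at 0.049 to 0.430 CPM against 0.801 to 2.29 CPM in the parental ones (log2 fold change -2.87, edgeR adjusted p = 0.00454). Its lowest library held 1 count. COL1A1 went the other way without passing the threshold (log2 fold change 0.81, edgeR adjusted p = 0.308), and the remaining genes of that list were not tested. Parental replicate 1 stood apart on the second principal component of all genes (61.5 against -30.3 to 24.95 for the others, 20.95% of the variance). Restored replicate 1 stood apart from its group on the first component (22.2 against 48.7 to 56.8, with the parental libraries from -46.7 to -42.6, 55.9% of the variance). Its ALB level, the albumin mRNA of hepatocytes, was 13.8 CPM against 445 to 681 CPM in the other restored libraries, and that of parental replicate 1 was 46.7 CPM against 159 to 208 CPM in the other parental ones. The part of what sets these 2 libraries apart in the results below was not tested. AXIN1 mRNA, the targeted gene, was 55.3, 52.8, 47.4 and 54.2 CPM in the parental libraries and 47.6, 48.0, 48.2 and 37.7 CPM in the restored ones. The AXIN1 groups overlapped and the difference missed the threshold (log2 fold change -0.21, SE 0.12, edgeR adjusted p = 0.267), so "restored" below means the libraries labelled Axin1 +, and every direction rests on those labels. The AXIN1 count does not tell the introduced from the cell's own transcript.

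Mitosis genes varied between libraries of the same label by more than between the labels. The median gene stood at 25.6, 45.97, 46.1 and 68.5 CPM in parental replicates 1 to 4, and at 74.4, 38.6, 54.2 and 56.9 CPM in restored replicates 1 to 4. On the log2 scale these medians were 5.46 ± 0.58 in the parental and 5.77 ± 0.39 in the restored group (mean ± SD, n = 4 each), a difference of 0.31 that is smaller than either SD. Parental replicate 1 was lowest, parental replicate 4 and restored replicate 1 were highest, and the groups overlapped widely. In these bulk samples, fewer dividing cells and less mRNA of these genes per cell cannot be told apart.

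The lowest library was shared by nearly all of these genes, and the highest by most. Parental replicate 1 had the lowest of the 8 values for 39 of the 41 genes, whereas it was lowest for 24.9% of all genes tested. Within the parental group, replicate 4 was highest for 39 of 41, against 26.6% of all genes, and within the restored group, replicate 1 was highest for 33 of 41, against 31.04%. Restored replicate 2 was the lowest restored library for 27 of 41, against 30.9% of all genes. The highest of the 8 values lay in restored replicate 1 for 17 genes and in parental replicate 4 for 16, and for the remaining 8 in restored replicates 2 or 4. The median ratio of the highest to the lowest parental value was 2.97 over these genes and 1.57 over all genes tested. CCNA2 (cyclin A2) spanned the widest parental range, 8.17-fold, at 6.23, 32.8, 30.6 and 50.9 CPM in the parental libraries and 52.3, 28.6, 40.95 and 52.4 CPM in the restored ones, and MAD2L1, a checkpoint protein, spanned 4.89-fold. BUB3, at 1.44-fold, and the ubiquitin-conjugating enzyme UBE2C, at 1.58-fold, spanned the narrowest. Genes of DNA replication, 26 genes used for comparison, moved with the same libraries: after centring each gene on its mean, their medians were -0.91 in parental replicate 1, 0.47 in parental replicate 4 and 0.33 in restored replicate 1, against -0.99, 0.57 and 0.61 for the mitosis genes. Parental replicate 1 also had the smallest scaling factor (0.897, against 0.969 to 1.06 in the others), and the part of library quality or culture state in its low values was not tested.

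**Figure D1:**
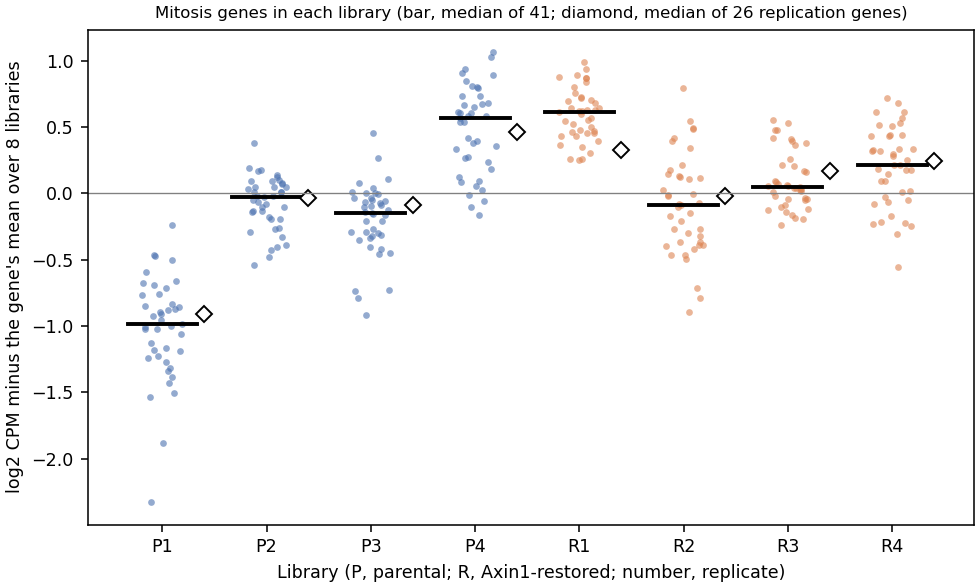
Each point is 1 of the 41 mitosis genes in 1 library, as log2 CPM minus the gene's mean over the 8 libraries; black bars are medians over the 41 genes and open diamonds are medians over 26 DNA replication genes. Parental replicate 1 (P1) lies lowest, with a median of -0.99, and parental replicate 4 (P4) and restored replicate 1 (R1) lie highest, with medians of 0.57 and 0.61.

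**Figure D2:**
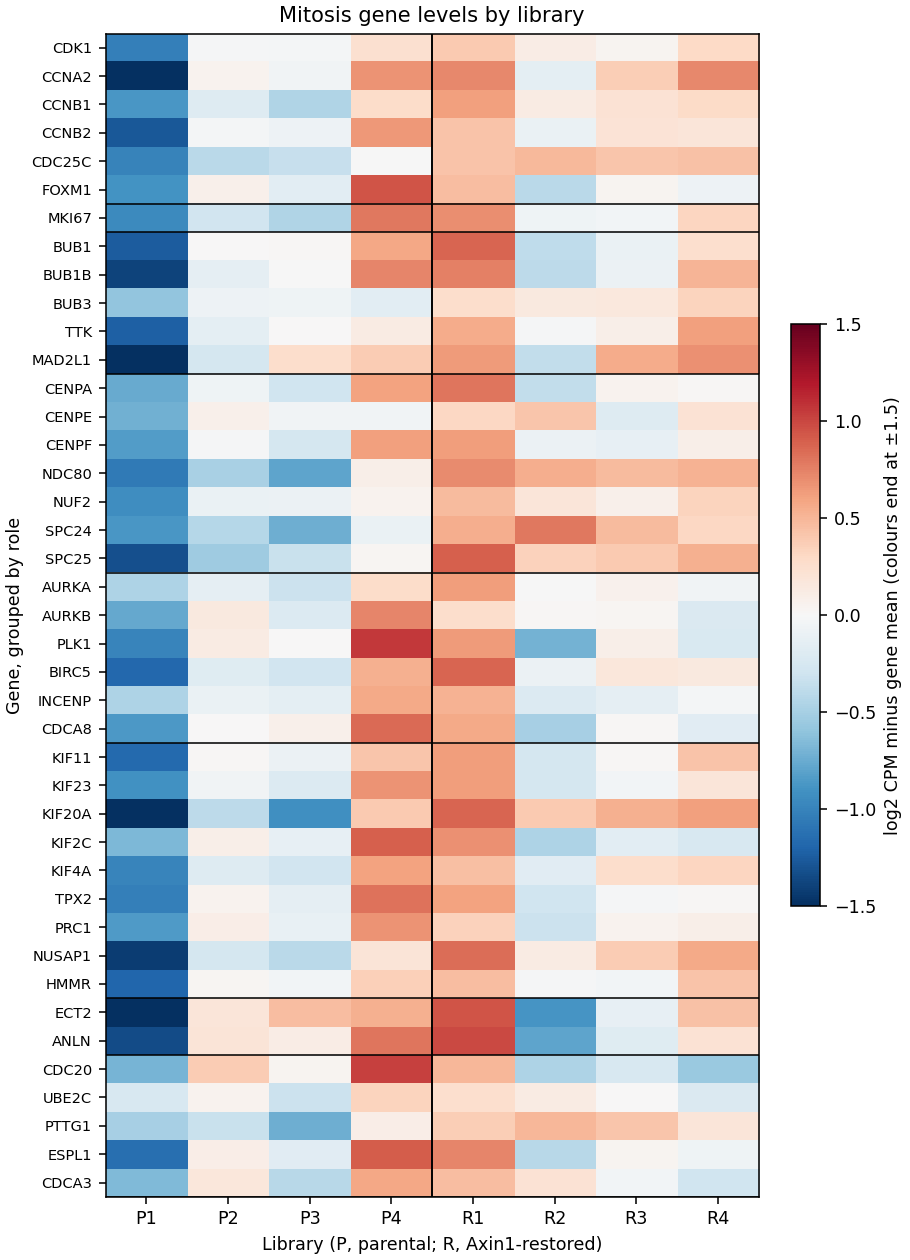
Colour gives the log2 CPM of each gene (rows, grouped by role and separated by lines) in each library (columns, P parental and R restored) minus the gene's mean over the 8 libraries. The first column is blue in every row. The restored columns all lie above 0 for CDK1, CCNB1, CDC25C, BUB3, NDC80, NUF2, SPC24, SPC25, KIF20A, NUSAP1 and PTTG1. CDC20, FOXM1 and PLK1 are among the genes that are reddest in P4.

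Against this spread, few mitosis genes differed between the labels. In edgeR's quasi-likelihood test, with Benjamini-Hochberg adjustment over all genes tested and a threshold of 0.05, 7 of the 41 were higher in the restored libraries and 0 were lower. Over all genes tested, 10.4% were called higher and 8.77% lower, 19.2% in either direction (12.1% and 6.07% with libraries scaled by total counts only), so the 17.1% of mitosis genes called, all higher, lay between the background in that direction and the background in either. At an unadjusted p under 0.05 the counts were 10 higher and 0 lower (17.1% and 16.4% of all genes), and DESeq2 and limma-voom each called 8 higher and 0 lower (12.4% and 12.1% of all genes by DESeq2, 10.6% and 9.17% by limma-voom). The fitted log2 fold changes ran from -0.44 to 1.06 with a median of 0.32, against 0.0026 over all genes, and 35 of 41 (85.4%) were above 0, against 50.2% of all genes. That median's size depended on single libraries: it was 0.10 without parental replicate 1, 0.14 without restored replicate 1 and 0.53 without parental replicate 4. The median fell below 0 only without both libraries numbered 1, at -0.046. Standard errors were larger than usual, with a median of 0.28 against 0.20 over all genes. The 7 called genes were NDC80, SPC24, SPC25, KIF20A, CDC25C, PTTG1 and BUB3. Of these, NDC80, SPC24 and CDC25C were called in the main comparison and in all 16 alternative fits at that threshold.

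**Figure D3:**
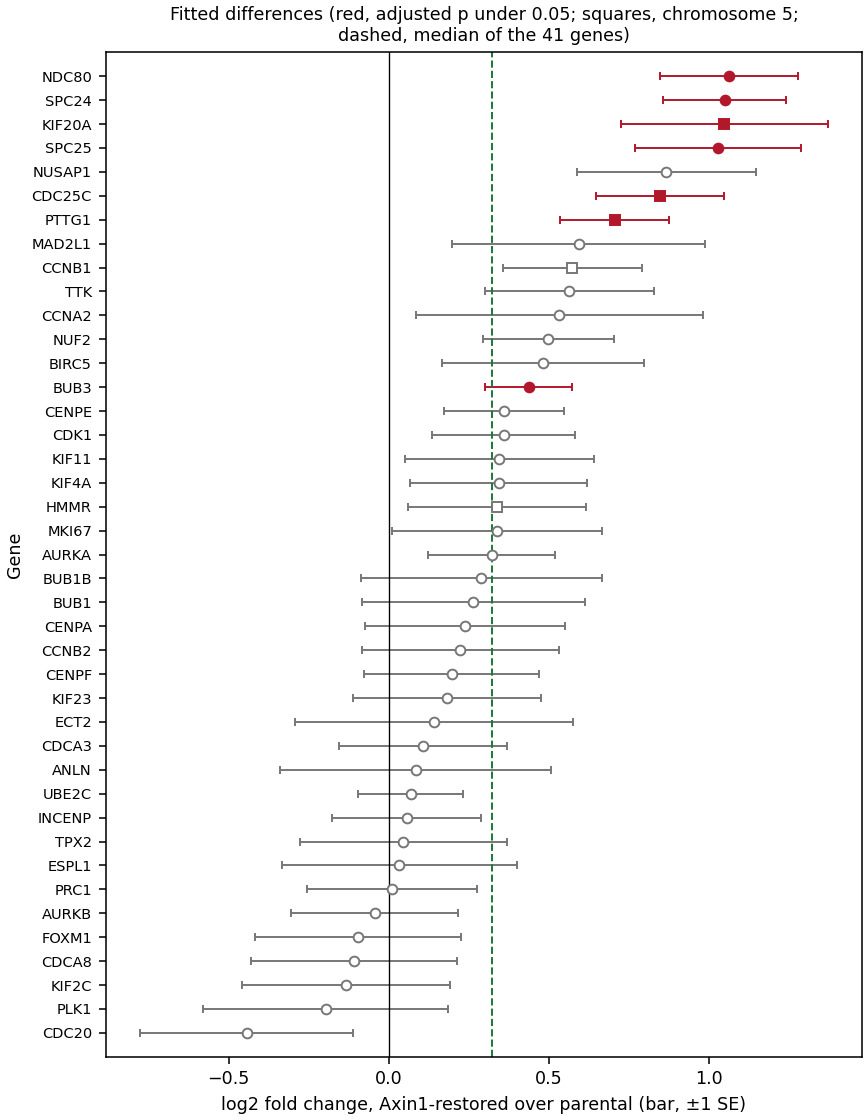
Fitted log2 fold changes of the 41 genes, restored over parental, with bars of 1 SE on each side; red filled symbols passed an adjusted p under 0.05 (edgeR), squares are genes on chromosome 5, and the dashed line is the median of the 41, 0.32. The 3 uppermost genes, NDC80, SPC24 and KIF20A, lie between 1.05 and 1.06, and CDC20 lies lowest at -0.44.

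Of 7 centromere and kinetochore genes, 3 were called higher, while 10.4% of all genes tested were. All 3 belong to the Ndc80 complex, the rod of 4 proteins that couples kinetochores to microtubule ends. The 4 genes of that complex are all among the 7, so the list itself favours it. NDC80 (also called HEC1, ENSG00000080986, chromosome 18, 2571511 to 2616635), which binds the microtubule directly, was 19.0, 28.4, 22.9 and 42.1 CPM in the parental libraries and 64.8, 58.0, 55.2 and 56.9 CPM in the restored ones. Every restored library lay above every parental one, and NDC80 rose from a mean of 28.1 ± 10.1 to one of 58.7 ± 4.19 CPM (SD, n = 4 per label), or 2.09-fold (log2 fold change 1.06, SE 0.21, edgeR adjusted p = 0.00733). SPC24 (ENSG00000161888, chromosome 19, 11131520 to 11155808), part of the end that anchors the rod in the kinetochore, was 9.34, 12.8, 10.3 and 16.1 CPM in the parental libraries and 25.3, 29.97, 24.1 and 21.5 CPM in the restored ones. The groups did not overlap, and SPC24 rose from a mean of 12.1 ± 3.01 to one of 25.2 ± 3.54 CPM (SD, n = 4 per label), or 2.07-fold (log2 fold change 1.05, SE 0.19, edgeR adjusted p = 0.00454). SPC25 (ENSG00000152253, chromosome 2, 168834132 to 168913371), the partner of SPC24 at that end, was 4.45, 7.72, 8.91 and 11.5 CPM in the parental libraries and 20.98, 14.3, 14.8 and 16.3 CPM in the restored ones. It likewise did not overlap and rose from a mean of 8.13 ± 2.91 to one of 16.6 ± 3.05 CPM (SD, n = 4 per label), or 2.04-fold (log2 fold change 1.03, SE 0.26, edgeR adjusted p = 0.0196). Its call was lost without parental replicate 2 (1.00, adjusted p = 0.0612) and without restored replicate 4 (1.04, adjusted p = 0.0525). NUF2 (ENSG00000143228, chromosome 1, 163266576 to 163355764), the direct partner of NDC80, was 11.5, 20.4, 20.6 and 22.8 CPM in the parental libraries and 30.6, 24.8, 23.1 and 27.7 CPM in the restored ones. The NUF2 values did not overlap either, but the difference missed the threshold (log2 fold change 0.50, SE 0.20, edgeR adjusted p = 0.114), and whether it is smaller than that of the other 3 subunits was not tested.

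**Figure D4:**
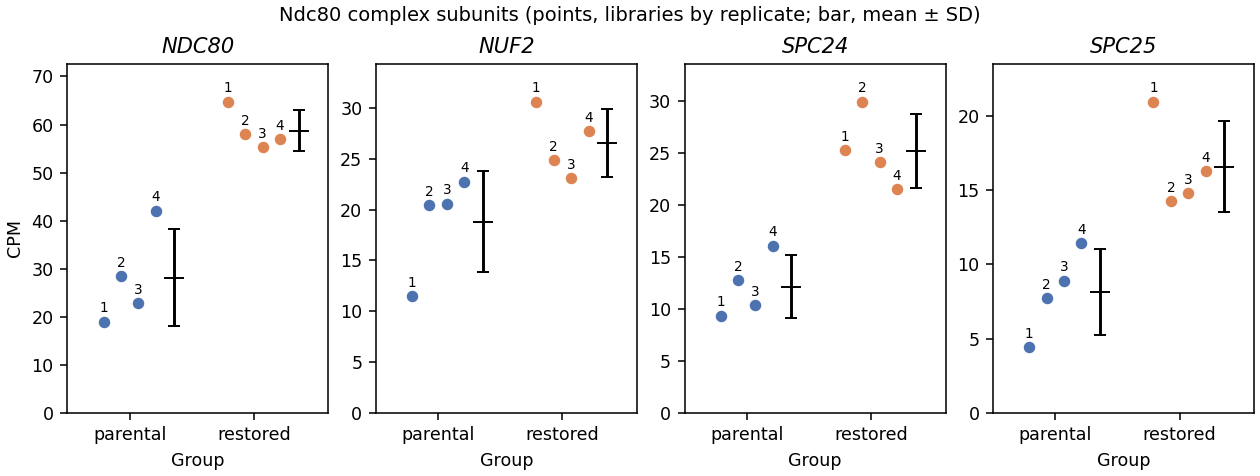
CPM of the 4 Ndc80 complex genes in each library (points, numbered by replicate) with mean and SD of each group (n = 4). In each panel all 4 restored libraries lie above all 4 parental ones; the means are 28.1 and 58.7 for NDC80 and 18.8 and 26.6 for NUF2.

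For 8 of the 41 genes, the 7 called genes and NUF2, the restored values all lay above the parental ones, and for 0 all lay below. Over all genes tested, 12.7% were higher without overlap and 11.2% lower, 23.9% in either direction, against 19.5% of the mitosis genes. The other 3 centromere and kinetochore genes overlapped. CENPA, the histone H3 variant that marks centromeres, was 7.03, 11.4, 9.71 and 18.2 CPM in the parental libraries and 20.9, 9.25, 12.4 and 12.1 CPM in the restored ones (log2 fold change 0.24, SE 0.31, edgeR adjusted p = 0.630). CENPE, a kinetochore motor, and CENPF, a large kinetochore protein, had log2 fold changes of 0.36 and 0.20 (edgeR adjusted p of 0.203 and 0.651).

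To set aside the level that these genes share within a library, each gene was set against the median of the 41 in its own library, a scale added after the data were seen. On this scale of log2 CPM minus that median, NDC80 stood at -0.43, -0.69, -1.005 and -0.70 in parental replicates 1 to 4 and at -0.20, 0.59, 0.03 and 0.00 in restored replicates 1 to 4. SPC25 stood between -2.57 and -2.36 in the parental and between -1.86 and -1.43 in the restored libraries. SPC24 overlapped here, since parental replicate 1 (-1.44) lay above restored replicate 1 (-1.56). KIF20A stood between -1.10 and -0.36 in the parental and between 0.00 and 0.47 in the restored libraries, and NUSAP1 between 0.07 and 0.40 and between 0.80 and 1.03. CDC20 went the other way, from 0.53 to 0.95 in the parental and from -0.37 to 0.30 in the restored libraries, as did CDCA8, from -0.92 to -0.62 and from -1.38 to -1.03. On this relative scale 4 genes were thus higher and 2 lower without overlap, while 1.88% of all genes tested were higher and 7.29% lower on it. These shares are no like background. Subtracting this median takes out a level that the 41 genes share, but adds its swings to genes that do not share it. On plain CPM, 12.7% of all genes tested were higher and 11.2% lower without overlap. The scale is relative and compares these genes only with each other. Without a like background, the 4 and 2 genes are a description, and unequal change among the 41 was not tested.

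**Figure D5:**
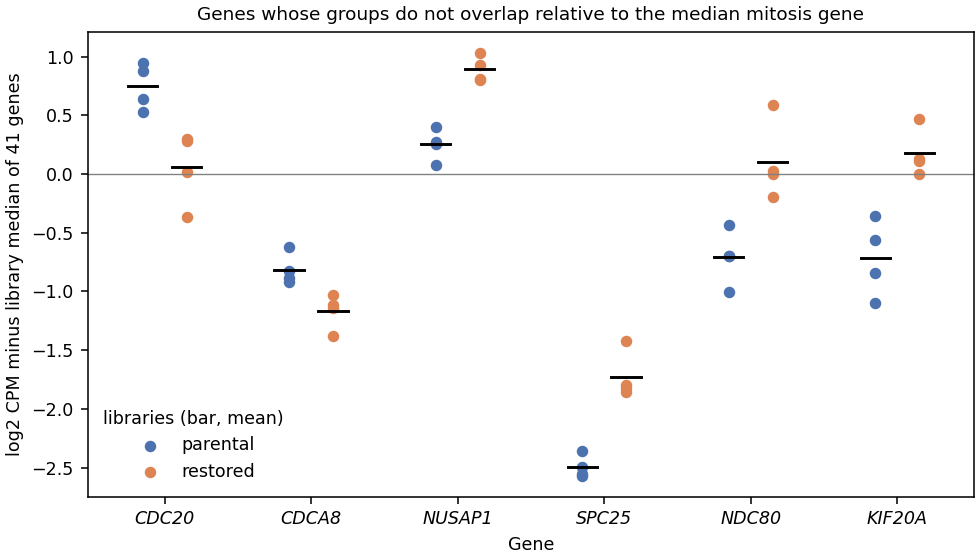
Log2 CPM of a gene minus the median log2 CPM of the 41 mitosis genes in the same library, for the 6 genes whose groups do not overlap on this scale (points, 4 libraries a group; bars, means). CDC20 and CDCA8 are lower, and NUSAP1, SPC25, NDC80 and KIF20A higher, in the restored libraries.

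The promoters of these genes were compared for elements that late cell cycle genes are known to share. Sequences from RefSeq (GRCh38.p14) covering 250 bases before to 50 after the gene start were matched for 34 of the 41 genes; BIRC5, FOXM1, UBE2C, TPX2, AURKA, TTK and BUB3 had no entry. The core of the cell cycle genes homology region (CHR), the element bound by MuvB complexes, was searched in its common form TTTGAA and in a variant that is its own reverse complement, TTCGAA. The element of the factor NF-Y was searched as CCAAT, and all on both strands, and a promoter was counted once however many matches it held. The CHR core was found in 25 of 34 promoters (73.5%), against 11.04% of the promoters of genes tested and 16.6% of all 27305 promoters. CCAAT was found in 27 of 34 (79.4%), against 37.3% of tested genes, and both in 21 of 34 (61.8%), against 4.74%. A CHR core match started between 70 bases before and 30 bases after the RefSeq start in 22 of the 34. The share over other promoters was not counted for that narrower span. All these counts are of matching letters, not measured sites.

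The Ndc80 complex genes, which rose or were non-overlapping together, CDC20 and KIF20A, which lie at opposite ends of the relative scale, and PLK1, a textbook gene with both elements, are shown from 120 bases before to 30 bases after the start, 5′ to 3′ on the gene's strand. Capitals mark the CHR core in either form and CCAAT, or their reverse complements. The stretches are NDC80, chr18:2571437-2571586 (plus strand); NUF2, chr1:163321834-163321983 (plus strand); SPC24, chr19:11155753-11155902 (minus strand); SPC25, chr2:168890401-168890550 (minus strand); CDC20, chr1:43358861-43359010 (plus strand); PLK1, chr16:23678769-23678918 (plus strand); and KIF20A, chr5:138178992-138179141 (plus strand), in GRCh38.p14.
NDC80: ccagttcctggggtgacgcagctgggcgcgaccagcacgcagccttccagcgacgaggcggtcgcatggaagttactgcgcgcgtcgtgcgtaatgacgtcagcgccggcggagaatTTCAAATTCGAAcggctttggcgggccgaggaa
NUF2: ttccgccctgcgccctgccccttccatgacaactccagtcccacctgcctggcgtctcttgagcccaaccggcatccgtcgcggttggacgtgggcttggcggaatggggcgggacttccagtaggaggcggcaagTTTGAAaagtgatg
SPC24: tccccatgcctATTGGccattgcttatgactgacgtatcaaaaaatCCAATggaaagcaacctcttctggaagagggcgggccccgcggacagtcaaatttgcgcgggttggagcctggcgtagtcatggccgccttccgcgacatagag
SPC25: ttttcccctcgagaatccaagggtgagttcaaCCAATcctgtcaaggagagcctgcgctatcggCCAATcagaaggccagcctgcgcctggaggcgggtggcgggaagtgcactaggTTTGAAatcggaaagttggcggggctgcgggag
CDC20: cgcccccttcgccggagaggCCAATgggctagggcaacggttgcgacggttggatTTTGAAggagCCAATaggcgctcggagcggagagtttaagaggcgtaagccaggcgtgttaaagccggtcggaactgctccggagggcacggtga
PLK1: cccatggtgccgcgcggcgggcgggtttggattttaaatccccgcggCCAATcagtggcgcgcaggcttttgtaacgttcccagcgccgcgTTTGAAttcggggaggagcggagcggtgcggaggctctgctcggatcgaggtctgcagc
KIF20A: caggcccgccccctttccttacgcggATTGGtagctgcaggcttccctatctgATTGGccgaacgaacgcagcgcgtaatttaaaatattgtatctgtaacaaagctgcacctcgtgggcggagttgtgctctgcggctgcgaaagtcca
The 4 subunits of the complex did not share 1 arrangement. NDC80 held 2 adjoining matches, starting 3 bases before and 4 bases after the start, and NUF2 held 1 starting at base 17 after the start, both without CCAAT in the window. SPC25 held CCAAT at 88 and 56 bases before the start and TTTGAA at 3 bases before it. SPC24 held CCAAT matches and no CHR core in the window. CDC20 held both elements, as did PLK1, with CCAAT at 73 and TTTGAA at 29 bases before the start, while KIF20A, which was called higher, held CCAAT alone. Of the genes called in all 16 alternatives, NDC80 held the CHR core in the window, while SPC24 and CDC25C had no match to either searched form there. Other forms of the core and other starts of a gene were not searched. A missing match therefore does not show that a gene lacks the element.

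Entry into mitosis was represented by 6 genes, of which CDC25C was called higher. CDC25C (ENSG00000158402, chromosome 5, 138285265 to 138338355), a phosphatase that activates CDK1, was 5.61, 8.60, 8.91 and 11.3 CPM in the parental libraries and 15.4, 16.0, 15.2 and 15.5 CPM in the restored ones. The restored values lay within 1.06-fold of each other and above all parental ones, and CDC25C rose from a mean of 8.61 ± 2.34 to one of 15.5 ± 0.357 CPM (SD, n = 4 per label), or 1.80-fold (log2 fold change 0.85, SE 0.20, edgeR adjusted p = 0.0157). CDK1 itself (ENSG00000170312, chromosome 10, 60778331 to 60794852) was 31.2, 62.7, 62.2 and 74.9 CPM in the parental libraries and 83.7, 68.6, 65.6 and 78.4 CPM in the restored ones and overlapped (log2 fold change 0.36, SE 0.22, edgeR adjusted p = 0.287). CCNB1 (cyclin B1, ENSG00000134057, chromosome 5, 69167010 to 69178245), its main mitotic partner, was 65.1, 105, 87.7 and 144 CPM in the parental libraries and 182, 131, 139 and 145 CPM in the restored ones. Parental replicate 4 (144 CPM) overlapped the restored range, and the test missed the threshold (log2 fold change 0.57, SE 0.22, edgeR adjusted p = 0.0881); without parental replicate 4 it passed at 0.80 (edgeR adjusted p = 0.0207). CCNA2 and CCNB2, the other cyclins, differed by 0.53 (SE 0.45) and 0.22 (SE 0.31) on the log2 scale, with adjusted p of 0.435 and 0.648 in the same edgeR test. FOXM1 (ENSG00000111206, chromosome 12, 2857681 to 2877155), the transcription factor that activates many late cell cycle genes, was 46.5, 91.0, 77.4 and 165 CPM in the parental libraries and 119, 65.4, 89.0 and 81.7 CPM in the restored ones. Its parental values alone spanned 3.56-fold around restored values that all lay within them (log2 fold change -0.10, SE 0.32, edgeR adjusted p = 0.858), and its sign changed without parental replicate 4 (0.31) or restored replicate 2 (0.025).

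MKI67 (ENSG00000148773, chromosome 10, 128096659 to 128126385), which encodes the proliferation marker Ki-67 that coats mitotic chromosomes, was 81.0, 128, 114 and 272 CPM in the parental libraries and 255, 149.7, 152 and 196 CPM in the restored ones. The highest value was parental and the lowest was parental (log2 fold change 0.34, SE 0.33, edgeR adjusted p = 0.504). Without parental replicate 4 MKI67 passed the threshold at 0.80 (edgeR adjusted p = 0.0402), and without both libraries numbered 1 it was -0.046.

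Spindle checkpoint genes were all fitted above 0, and 1 of 5 passed the test. BUB3 (ENSG00000154473, chromosome 10, 123154277 to 123170467), a checkpoint adaptor with further roles outside mitosis, was 75.6, 108, 109 and 102 CPM in the parental libraries and 136, 126, 127 and 143 CPM in the restored ones. The groups did not overlap, and BUB3 rose from a mean of 98.5 ± 15.6 to one of 133 ± 8.18 CPM (SD, n = 4 per label), or 1.35-fold, the smallest called difference of the 7 (log2 fold change 0.44, SE 0.13, edgeR adjusted p = 0.0444). The BUB3 call was lost in 9 of 16 alternative fits: with the replicate number as a block, without both libraries numbered 1, and without any library other than parental replicate 1, with adjusted p between 0.0543 and 0.123. The kinase BUB1 was 19.2, 46.0, 46.1 and 68.5 CPM in the parental libraries and 83.5, 34.9, 42.6 and 54.4 CPM in the restored ones, and its relative BUB1B (BubR1), which binds CDC20, was 12.3, 29.4, 32.1 and 53.6 CPM in the parental libraries and 54.7, 24.6, 30.3 and 45.8 CPM in the restored ones. Parental replicate 1 lay below and restored replicate 1 above the whole other group for both genes, and the remaining values overlapped, with fitted differences of 0.26 (SE 0.35, BUB1) and 0.29 (SE 0.37, BUB1B) on the log2 scale. The checkpoint kinase TTK (MPS1) and MAD2L1 (MAD2), which holds CDC20 inactive, had log2 fold changes of 0.56 and 0.59 (edgeR adjusted p of 0.161 and 0.320), and MAD2L1 stood at 4.72 CPM in parental replicate 1 and 13.7 CPM in restored replicate 2 against 14.7 CPM or more elsewhere.

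Mitotic kinases and the chromosomal passenger complex, which corrects wrong attachments, held no called gene among 6, at adjusted p of 0.282 or more in edgeR's test. PLK1 (ENSG00000166851, chromosome 16, 23677656 to 23690367), a kinase of mitotic entry and spindle assembly, was 25.6, 55.5, 51.1 and 107 CPM in the parental libraries and 79.6, 31.0, 54.2 and 43.5 CPM in the restored ones. The parental PLK1 values spanned 4.17-fold and enclosed the restored ones (log2 fold change -0.20, SE 0.38, edgeR adjusted p = 0.751). Its sign changed without parental replicate 4 (0.24), and without both libraries numbered 1 it was lower and past the threshold (-0.73, edgeR adjusted p = 0.0450). AURKA, the centrosomal Aurora kinase, was 160.02, 201, 177 and 266 CPM in the parental libraries and 341, 220.3, 230.2 and 213 CPM in the restored ones; restored replicate 1 alone was far above the rest. AURKB, the passenger complex's kinase, averaged 71.3 CPM ± 30.9 in parental and 69.2 CPM ± 9.30 in restored libraries (SD, n = 4 per label). Its partners BIRC5 (survivin), INCENP and CDCA8 (borealin) had log2 fold changes of 0.48, 0.06 and -0.11, with standard errors of 0.31, 0.23 and 0.32. CDCA8 (ENSG00000134690, chromosome 1, 37692418 to 37709719) was 13.5, 24.8, 25.9 and 44.4 CPM in the parental libraries and 36.5, 17.4, 24.9 and 21.9 CPM in the restored ones, with all restored values inside the parental range. The sign of CDCA8 changed without parental replicate 4 (0.23) or restored replicate 2 (0.030).

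Of 9 genes of spindle motors and microtubule proteins, 1 was called. KIF20A (MKLP2, ENSG00000112984, chromosome 5, 138178719 to 138187715), the kinesin that carries the passenger complex to the central spindle, was 14.2, 31.0, 21.5 and 53.4 CPM in the parental libraries and 74.4, 53.5, 58.6 and 62.2 CPM in the restored ones. The gap between the groups was narrow, 53.4 CPM in parental replicate 4 against 53.5 CPM in restored replicate 2, while KIF20A rose from a mean of 30.03 ± 17.0 to one of 62.2 ± 8.92 CPM (SD, n = 4 per label), or 2.07-fold (log2 fold change 1.05, SE 0.32, edgeR adjusted p = 0.0435). The KIF20A call was lost in 7 of 16 alternative fits, with total counts only and without any 1 of parental replicates 2 and 3 and the restored replicates 1 to 4, at adjusted p between 0.0504 and 0.104. NUSAP1 (ENSG00000137804, chromosome 15, 41332694 to 41381050), which bundles spindle microtubules, was 27.0, 60.9, 55.1 and 82.9 CPM in the parental libraries and 130.1, 79.0, 94.6 and 108 CPM in the restored ones. It just missed the threshold with 8 libraries (log2 fold change 0.87, SE 0.28, edgeR adjusted p = 0.0524) and passed it in 6 of 16 alternatives, among them DESeq2 and limma-voom and the fits without parental replicate 1 (0.63, adjusted p = 0.0288) or parental replicate 4 (1.11, adjusted p = 0.0246). KIF2C (ENSG00000142945, chromosome 1, 44739818 to 44767767), a microtubule depolymerase at centromeres, was 26.3, 44.8, 38.7 and 78.2 CPM in the parental libraries and 67.5, 30.5, 37.6 and 35.6 CPM in the restored ones (log2 fold change -0.13, SE 0.33, edgeR adjusted p = 0.805); it was 0.23 without parental replicate 4, and without both libraries numbered 1 it was called lower (-0.64, edgeR adjusted p = 0.0389). The bipolar spindle motor KIF11, the chromokinesin KIF4A, the spindle protein HMMR, the central spindle proteins KIF23 and PRC1 and the spindle assembly factor TPX2 had log2 fold changes between 0.01 (PRC1) and 0.34 (KIF11), none past the threshold.

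Cytokinesis was represented by ECT2, the activator of RhoA at the division plane, and ANLN (anillin), a scaffold of the contractile ring. ECT2 was 20.8, 68.8, 83.5 and 88.0 CPM in the parental libraries and 117, 32.7, 55.6 and 82.3 CPM in the restored ones, and ANLN was 19.4, 56.3, 53.0 and 85.8 CPM in the parental libraries and 97.9, 28.5, 43.3 and 57.3 CPM in the restored ones. Both were low in parental replicate 1 and restored replicate 2, and the groups overlapped in part. Their fitted log2 differences were 0.14 (SE 0.43, ECT2) and 0.08 (SE 0.42, ANLN).

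Of 5 genes of anaphase and its ubiquitin ligase, 1 was called higher and 0 lower. PTTG1 (securin, ENSG00000164611, chromosome 5, 160421822 to 160428744), the inhibitor that holds separase until anaphase, was 39.4, 44.3, 33.6 and 59.5 CPM in the parental libraries and 71.8, 78.5, 74.7 and 63.5 CPM in the restored ones. No restored value overlapped the parental ones, and PTTG1 rose from a mean of 44.2 ± 11.1 to one of 72.1 ± 6.37 CPM (SD, n = 4 per label), or 1.63-fold (log2 fold change 0.70, SE 0.17, edgeR adjusted p = 0.0168). That call was lost without parental replicate 2 (0.70, adjusted p = 0.0514) and without restored replicate 3 (0.69, adjusted p = 0.0502). Separase itself, ESPL1, was 12.6, 29.7, 24.8 and 52.2 CPM in the parental libraries and 46.1, 20.7, 28.7 and 26.5 CPM in the restored ones (log2 fold change 0.03, SE 0.37, edgeR adjusted p = 0.961). CDC20 (ENSG00000117399, chromosome 1, 43358955 to 43363203), the activator of the anaphase-promoting complex and target of the checkpoint, was 40.05, 84.4, 66.6 and 132 CPM in the parental libraries and 91.6, 46.8, 54.9 and 44.1 CPM in the restored ones. It had the lowest fitted value of the 41 and the groups overlapped (log2 fold change -0.44, SE 0.33, edgeR adjusted p = 0.378). Without both libraries numbered 1, CDC20 was lower and past the threshold (-0.96, edgeR adjusted p = 0.0035), and it ranged from -0.74 to -0.10 with any 1 library left out. UBE2C, which starts ubiquitin chains for that complex, averaged 103 CPM ± 21.8 in parental and 108 CPM ± 14.7 in restored libraries (SD, n = 4 per label), and CDCA3, a trigger of mitotic entry, had a log2 fold change of 0.11 (SE 0.26).

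Without both libraries numbered 1, an alternative chosen with earlier results of these data known, 7 mitosis genes were higher and 3 lower (CDC20, PLK1 and KIF2C), while 16.6% of all genes were called higher and 15.7% lower. BUB3 was then not called and NUSAP1 was. NDC80, SPC24, SPC25, CDC25C, PTTG1 and KIF20A were called higher there as in the comparison of all libraries. Parental replicate 4, the highest parental library for 39 of the 41 genes, is 1 of the 3 parental libraries left in that fit.

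Levels between genes were compared per kilobase of merged exons, since longer genes collect more counts. UBE2C ranked highest, at 79.98 ± 17.0 in the parental and 83.9 ± 11.5 in the restored libraries (mean ± SD, n = 4, CPM per kilobase), and AURKA next, at 68.7 ± 15.9 in the parental and 85.8 ± 20.7 in the restored libraries. Within either label these neighbours did not differ beyond their spread, nor did TPX2 (48.7 ± 24.5 in the parental and 50.3 ± 14.1 in the restored libraries) and CCNB1 (39.2 ± 13.0 in the parental and 58.4 ± 8.96 in the restored libraries), which came next. At the other end stood CDC25C (2.58 ± 0.700 in the parental and 4.65 ± 0.107 in the restored libraries), MAD2L1 (2.77 ± 1.44 in the parental and 4.17 ± 1.20 in the restored libraries) and, lowest over all libraries, ESPL1 (3.36 ± 1.86 in the parental and 3.43 ± 1.23 in the restored libraries). Of the Ndc80 complex genes, whose proteins assemble in equal numbers, NDC80 stood at 7.80 ± 2.81 in the parental and 16.3 ± 1.16 in the restored libraries. NUF2 stood at 5.60 ± 1.49 in the parental and 7.90 ± 0.988 in the restored libraries, SPC24 at 4.28 ± 1.06 in the parental and 8.88 ± 1.25 in the restored libraries and SPC25 at 4.42 ± 1.58 in the parental and 9.01 ± 1.65 in the restored libraries. By these means NDC80 was the most abundant of the 4 under both labels, and in the restored libraries by more than the SDs. Merged exons count every annotated transcript, so lengths of genes with long rare transcripts are overstated.

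Genes on chromosome 5 took 3 of the 7 calls. On that chromosome lie 5 of the 41 genes, CCNB1, KIF20A, CDC25C, PTTG1 and HMMR, and of its 598 tested genes 188 (31.4%) were called higher and 16 (2.68%) lower, with a median log2 fold change of 0.40. Of the other 36 mitosis genes, 4 (11.1%) were called higher, near the 10.4% of all genes tested, and their median was 0.25. The part of this regional shift in the calls on chromosome 5 was not tested. The 20 tested genes on either side of KIF20A, and of CDC25C close to it, had a median of 0.62, which left 0.43 and 0.23 after subtraction, and those around PTTG1 had a median of 0.34, which left 0.37. NDC80, near the end of chromosome 18, had 31 such neighbours with a median of 0.64, which left 0.43. SPC24 (neighbours 0.14, difference 0.91), SPC25 (neighbours -0.18, difference 1.20) and BUB3 (neighbours 0.16, difference 0.28) lay among genes that had moved less.

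Some counts may hold reads of other genes. Exons of 15 of the 41 genes overlap those of a gene on the opposite strand in GENCODE 29, and whether counting used strand is not given in the sources used here. KIF20A overlaps BRD8 by 132 bases and CDC23 by 68 bases, both higher in the restored libraries (log2 fold changes 0.92 and 0.99). CDC25C overlaps FAM53C by 293 bases, which did not pass the threshold (log2 fold change 0.30). PTTG1 and KIF4A have near-identical copies without introns; PTTG2 had 0 counts, PTTG3P reached 0.0716 CPM and KIF4B reached 0.586 CPM at most, and how reads shared with them were assigned is not given.

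Other genes of mitosis, 112 genes in 7 lists chosen by function, were all tested, and 10 were higher and 4 lower (12.5%, against 19.2% of all genes). For 79 of the 112, parental replicate 1 held the lowest value. The inner centromere network that carries the kinetochore had 3 of 15 genes higher (CENPK, CENPQ and CENPW) and a median of 0.31. CENPK (ENSG00000123219, chromosome 5, 65517766 to 65563171) was 2.58, 4.54, 3.65 and 5.94 CPM in the parental libraries and 8.68, 7.59, 7.59 and 10.1 CPM in the restored ones (log2 fold change 1.02, SE 0.26, edgeR adjusted p = 0.0194). Its call was lost without parental replicate 2 (1.06, adjusted p = 0.0508), parental replicate 3 (0.96, adjusted p = 0.0526) or restored replicate 4 (0.92, adjusted p = 0.0666). CENPQ and CENPW were called at 0.67 and 0.52 and lost the call in 8 and 7 of 16 alternatives.

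Among 15 other genes of the outer kinetochore and the checkpoint, DSN1 was higher and MAD1L1 lower, with a median of 0.25. MAD1L1 (ENSG00000002822, chromosome 7, 1815793 to 2233243), which recruits MAD2 to unattached kinetochores, was 28.3, 23.2, 21.9 and 30.3 CPM in the parental libraries and 12.7, 13.1, 17.0 and 11.6 CPM in the restored ones. All its restored values lay below all parental ones, and MAD1L1 fell from a mean of 25.9 ± 4.01 to one of 13.6 ± 2.35 CPM (SD, n = 4 per label; log2 fold change -0.93, SE 0.17, edgeR adjusted p = 0.00457), a call kept in all 16 alternatives. DSN1, of the Mis12 complex on which the Ndc80 complex docks, was called at 0.53 and lost the call in 5 of 16.

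The anaphase-promoting complex had 2 of 17 genes higher and 1 lower, with a median near 0. Its subunits CDC23 (ENSG00000094880, chromosome 5, 138187648 to 138213343) and CDC27 (ENSG00000004897, chromosome 17, 47117703 to 47189422) rose from a mean of 30.2 ± 4.80 to one of 60.03 ± 6.42 CPM (SD, n = 4 per label; log2 fold change 0.99, SE 0.15, edgeR adjusted p = 0.00138) and from a mean of 43.3 ± 8.02 to one of 80.6 ± 16.4 CPM (SD, n = 4 per label; log2 fold change 0.90, SE 0.18, edgeR adjusted p = 0.00695). Both calls held in all 16 alternatives, and CDC23 lies on chromosome 5. ANAPC4, another subunit, fell from a mean of 34.0 ± 2.58 to one of 23.2 ± 2.90 CPM (SD, n = 4 per label; log2 fold change -0.55, SE 0.14, edgeR adjusted p = 0.0183), and missed the threshold without parental replicate 2 (-0.53, adjusted p = 0.0620) or restored replicates 3 or 4 (-0.50 each, adjusted p = 0.0630 and 0.0626). Parental replicate 1 was lowest for 4 of these 17 genes, near the 24.9% of all genes tested.

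Condensin, cohesin and chromosome structure genes had 1 of 20 higher, TOP2A, and 1 lower, the cohesin regulator PDS5B (-0.54, lost in 8 of 16 alternatives). TOP2A, the DNA topoisomerase that untangles sister chromatids, was 155, 181, 161 and 212 CPM in the parental libraries and 411, 369, 296 and 315 CPM in the restored ones. No values overlapped, and the TOP2A call (log2 fold change 0.97, SE 0.15, edgeR adjusted p = 0.00173) held in all 16. Other spindle genes had 1 of 18 higher, SPAG5 (astrin), which rose from a mean of 41.2 ± 9.57 to one of 66.9 ± 8.45 CPM (SD, n = 4 per label; log2 fold change 0.70, SE 0.17, edgeR adjusted p = 0.0165) and lost its call only without parental replicate 2 (0.61, adjusted p = 0.0581), and the list's median was 0.34. Other mitotic kinases, phosphatases and entry regulators had 1 of 15 higher, the phosphatase inhibitor ARPP19 (0.43, lost in 6 of 16). Of 12 transcription factor genes of MuvB, B-MYB and the repressive DREAM complex, RBL2 (p130) was higher and E2F4 lower (0.94 and -0.40), calls lost in 4 and 9 of 16 alternatives. The replication genes used for comparison had 2 of 26 higher, POLA1 (1.10, lost in 3 of 16) and CDC6 (0.80, lost in 7 of 16), and a median of 0.22.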

How the data were processed

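RNA sequencing libraries of 8 Alexander1 samples were grouped and numbered from their titles. Whole-number read counts for each gene, not normalized, were deposited by the authors as 1 table. The submitters' processing notes name bcl2fastq, fastp 0.23.1, STAR 2.7.4 and GRCh38; the counting program, annotation and use of strand are not given in the sources used here. Identifiers were matched to symbols (57495 of 58206) and to GENCODE 29 (57943). In R 4.3.3, edgeR 4.0.16 filtered genes with filterByExpr (minimum count 10, total 15), scaled libraries by TMM and fitted the 2 groups by quasi-likelihood, with two-sided p adjusted over all 14289 genes tested; each standard error was derived from the fold change and its F statistic (|log2 fold change| / √F). Log2 CPM used a prior count of 2. Lists are described by counts and medians. Alternatives, among them DESeq2 1.42.0 and limma-voom 3.58.1, are given at the end. The test was run on counts simulated for each gene independently. Those counts lack the swings that the mitosis genes share within a library, so that run does not bear on them. The biological coefficient of variation was 0.227, and 0 columns belonged to no sample. The 41 genes, the lists and the alternatives were chosen with earlier results of these data known. Genes described in full were those past the threshold, the 6 highest and 4 lowest fold changes, MKI67, CDK1, CCNB1, PLK1, FOXM1 and AXIN1, and up to 4 called genes of each list (otherwise the one with the smallest p). No pairing of the libraries by replicate number was seen, and the main fit used none. 1 result on overlapping exons is not reported here.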

Additional observations from a re-analysis of the deposited data

Results flagged for a closer look

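In 84 groups of 4 libraries (each of the 41 genes in each label, and the library medians), 4 had 1 library set apart by more than Dixon's 95% critical value, which is 4.76% of the groups. Chance flags about 5% of independent groups. The genes here vary together across the same libraries, so that rate cannot be used to judge this share. In the parental group, CENPE was at 30.6 CPM in replicate 1 against 48.4 to 52.9 CPM in the others (gap over range 0.835), and NUF2 was at 11.5 CPM in replicate 1 against 20.4 to 22.8 CPM (0.843). In the restored group, MAD2L1 was at 13.7 CPM in replicate 2 against 26.02 to 28.5 CPM (0.877), and AURKA was at 341 CPM in replicate 1 against 213 to 230.2 CPM (0.834).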

How the results depend on the processing

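Without 1 library at a time, the genes called over the whole table numbered 1394 (without restored replicate 4) to 3523 (without parental replicate 1), the mitosis genes called higher 3 (without parental replicate 2) to 9 (without parental replicate 4), with 0 lower each time, and genes called in the 7 other lists 4 to 15. Without both libraries numbered 1, 4623 genes were called, 3 mitosis genes were lower, and the median log2 fold change of the 41 was -0.046, against 0.32. At an adjusted p under 0.01, 964 genes, 2 mitosis genes and 4 genes of the other lists were called, against 2738, 7 and 14. No pairing by the numbers 1 to 4 was seen. Deviations of same-numbered libraries correlated at -0.06, 0.01, -0.03 and 0.23, and not every library correlated best with its own number. With 4 libraries a group, these correlations cannot exclude pairing. With the replicate number as a block, 2033 genes were called, among them 6 mitosis genes (BUB3 was lost) and 9 genes of the other lists, and the median of the 41 was 0.34. Some values crossed 0. With 1 library left out, CDCA8 ran from -0.35 to 0.23, FOXM1 from -0.33 to 0.31, KIF2C from -0.44 to 0.23 and PLK1 from -0.48 to 0.24, each above 0 without parental replicate 4, and CDCA8 and FOXM1 also without restored replicate 2. FOXM1 was 0.014 with limma-voom and 0.0021 with the replicate block, and MKI67 was -0.046 without both libraries numbered 1. The cause of these changes was not tested. With libraries scaled by DESeq2 size factors or by total counts only and with the other filters, 6 to 9 mitosis genes were higher, and parental replicate 1 was lowest for 39 or 40 of the 41. Over all fits, 5.55% to 16.6% of all genes tested were called higher. Scaling by total counts only moved the median of all genes from 0.0026 to 0.086 and that of the 41 to 0.40. The median of the 41 was 0.25 without the genes on chromosome 5. In the 250 bases before the start only, 18 of 34 promoters held the CHR core, 27 held CCAAT and 16 held both. No gene of the 41 was limited by counting depth, the lowest count being 50.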
